A study of Mus musculus with 6 samples.

Results

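The table of long non-coding RNAs (lncRNAs) lists 24817 features, sequenced from the mouse macrophage line RAW264.7, and 4 of them are described here: NONMMUT010787.2, NONMMUT135390.1, MSTRG.49649.2 and ENSMUST00000198943. They were chosen by their identifiers from earlier results of these libraries, as features that stood alone on their stretch of chromosome and differed by a large and even amount between the groups. All cells received lipopolysaccharide (LPS) for 24 h, after which the medium was exchanged for bone-cement extract. The LPS_ES_PMMA group (n = 3) received extract of polymethyl methacrylate (PMMA) cement with enoxaparin sodium, a low-molecular-weight heparin. The LPS_PMMA group (n = 3) received extract of PMMA cement per the titles and treatment labels, whereas its descriptions and table columns name LPS alone. Neither genotype nor age applies beyond the cell line, and no label states whether a group's libraries are separate cultures, so the p-values given for other features measure the spread between these libraries, which may be technical. In such bulk libraries, fewer cells of a type and less RNA per cell cannot be told apart.

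An lncRNA is a transcript without a long open reading frame. Many lncRNA models lie beside, inside or opposite a protein-coding gene, so the position of a model decides which transcripts its reads can come from. Where the strand of the reads is not used, reads of a gene and of its antisense partner cannot be told apart, and the sources used here give no strand setting. Several coding genes come into the account. Gosr1 encodes a SNARE of the Golgi. Cpd encodes carboxypeptidase D, a membrane enzyme that cuts C-terminal arginine and lysine from peptides. Ccrl2 encodes a receptor related to the chemokine receptors that binds chemerin. Lsm14a encodes an RNA-binding protein of P bodies, where mRNA is stored and decapped. Sort1 encodes sortilin, a sorting receptor, and Psrc1 encodes a microtubule-associated protein of dividing cells.

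The sequences below belong to the annotated models on which the results turn, in mm10 coordinates. Gm43099 is the gene of ENSMUST00000198943, and its first 300 bases are shown from the plus strand at chr3:108287881-108288180. Gm12764-201 is the model that MSTRG.49649.2 matches in span and length once it is moved, as described further on; it lies on the plus strand at chr7:34388665-34394779. Its last 300 bases are shown, 27 of the first exon in lower case and the 273 of the second exon in capitals.
Gm43099: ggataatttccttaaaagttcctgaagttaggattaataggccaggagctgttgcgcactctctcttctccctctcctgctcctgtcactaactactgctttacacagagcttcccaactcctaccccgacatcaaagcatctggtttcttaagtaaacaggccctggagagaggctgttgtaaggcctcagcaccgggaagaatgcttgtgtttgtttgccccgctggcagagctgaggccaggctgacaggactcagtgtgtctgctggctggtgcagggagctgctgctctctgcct
Gm12764: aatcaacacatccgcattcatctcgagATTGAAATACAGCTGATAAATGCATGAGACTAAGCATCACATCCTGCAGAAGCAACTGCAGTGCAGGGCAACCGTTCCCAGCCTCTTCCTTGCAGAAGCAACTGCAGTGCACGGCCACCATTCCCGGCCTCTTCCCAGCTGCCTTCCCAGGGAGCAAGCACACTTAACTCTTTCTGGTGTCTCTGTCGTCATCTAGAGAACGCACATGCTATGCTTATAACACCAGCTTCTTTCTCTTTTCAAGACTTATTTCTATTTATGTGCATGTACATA

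The next 3 are the RefSeq promoter windows (GRCm38.p6), from 250 bases before to 50 bases after a gene's start, of coding genes that the other moved intervals cover. The Cpd window lies on the minus strand at chr11:76846959-76847258, the Ccrl2 window on the minus strand at chr9:111057469-111057768, and the Psrc1 window on the plus strand at chr3:108383554-108383853. Capitals mark matches to the NF-kB consensus on either strand.
Cpd promoter: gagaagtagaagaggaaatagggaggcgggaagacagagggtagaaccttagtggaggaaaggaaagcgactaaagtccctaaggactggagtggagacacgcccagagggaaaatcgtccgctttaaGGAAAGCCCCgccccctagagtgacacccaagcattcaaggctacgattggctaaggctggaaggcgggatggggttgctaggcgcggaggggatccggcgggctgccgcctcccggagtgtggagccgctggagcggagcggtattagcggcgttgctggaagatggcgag
Ccrl2 promoter: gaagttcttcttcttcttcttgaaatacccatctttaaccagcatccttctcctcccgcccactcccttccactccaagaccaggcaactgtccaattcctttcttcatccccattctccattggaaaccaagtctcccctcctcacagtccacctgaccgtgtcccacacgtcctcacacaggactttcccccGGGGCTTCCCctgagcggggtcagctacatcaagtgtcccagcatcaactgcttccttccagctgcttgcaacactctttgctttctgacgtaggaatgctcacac
Psrc1 promoter: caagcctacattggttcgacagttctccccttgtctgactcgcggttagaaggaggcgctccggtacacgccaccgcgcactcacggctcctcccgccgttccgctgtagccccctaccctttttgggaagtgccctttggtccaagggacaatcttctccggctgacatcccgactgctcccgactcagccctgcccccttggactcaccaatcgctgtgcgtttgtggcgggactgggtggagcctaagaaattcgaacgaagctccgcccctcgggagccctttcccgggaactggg

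Reads per library came to 3261653, 1123551 and 3070657 for LPS_ES_PMMA, against 3697638, 3249485 and 2877523 for LPS_PMMA. TMM factors ran from 0.559 to 1.82, so levels are given as CPM, counts scaled to a common library size, of the TMM-scaled totals, and as the authors' FPKM where features of different length are compared. Features tied to the macrophage markers Adgre1, Cd68 and others summed to 99.1 to 184 CPM in LPS_ES_PMMA and 115 to 166 CPM in LPS_PMMA, with 3 of 9 features tested and 0 called by edgeR (smallest adjusted p = 0.238). Features tied to the osteoclast, T cell and fibroblast markers summed to at most 2.53 CPM in any library, and none was listed for the B cell, endothelial or neutrophil markers. These are lncRNA features tied to marker genes by the table's gene column or their listed position, not the marker transcripts, and whether their reads come from the marker genes was not tested.

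Of the 4 features, 3 were lower and 1 was higher in LPS_ES_PMMA, each by 8.80-fold or more in mean CPM. Among the 8873 features with enough reads to test, a log2 fold change of 3 or more in size was reached by 1.83%. CPM of the groups did not overlap, lower in LPS_ES_PMMA, for 14.6% of them, and not overlapping and higher for 16.2%. By edgeR's adjusted p under 0.05, 2.58% of tested features were lower and 2.18% higher. The 4 features were picked by this contrast, so their values are given as a description with no test.

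NONMMUT010787.2 is a single block of 3343 bases at chr11:76737161-76740503, which the table lists as exonic and sense to Gosr1. It had 406, 205 and 222 reads in LPS_ES_PMMA, against 2060, 2822 and 3420 reads in LPS_PMMA. On the scaled totals these were 98.6, 103.8 and 74.8 CPM in LPS_ES_PMMA, against 1013, 1111 and 1235 CPM in LPS_PMMA. Every LPS_ES_PMMA library lay below every LPS_PMMA library, and the nearest pair of libraries differed 9.75-fold. Mean CPM was 92.4 ± 15.5 in LPS_ES_PMMA and 1119 ± 111 in LPS_PMMA (SD, n = 3 each), and the fitted log2 fold change was -3.60 (SE 0.28). It was the most abundant of the 4 in LPS_PMMA by reads, and by mean FPKM it ranked 1064 of 24817 features in LPS_ES_PMMA and 107 in LPS_PMMA.

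NONMMUT135390.1 has 509 bases of exon spread over 10111 bp at chr9:110884577-110894687, listed as exonic and antisense to Als2cl. It had 75, 23 and 59 reads in LPS_ES_PMMA, against 520, 609 and 468 reads in LPS_PMMA. The CPM values were 18.2, 11.7 and 19.9 in LPS_ES_PMMA, against 256, 240 and 169 in LPS_PMMA. The groups did not overlap, with 8.50-fold between the nearest libraries. Mean CPM was 16.6 ± 4.35 in LPS_ES_PMMA and 221 ± 46.1 in LPS_PMMA (SD, n = 3 each), and the fitted log2 fold change was -3.73 (SE 0.33). Per length it was the most abundant of the 4, at 26.0 ± 7.31 FPKM in LPS_ES_PMMA and 251 ± 32.4 FPKM in LPS_PMMA, which in LPS_PMMA ranked 89 of 24817. NONMMUT010787.2 stood close to it on that scale, at 22.4 ± 6.14 FPKM in LPS_ES_PMMA and 202 ± 63.2 FPKM in LPS_PMMA, so these neighbours in the order did not differ beyond their spread in either group.

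MSTRG.49649.2 is a transcript assembled by the authors, with 617 bases of exon over 6115 bp at chr7:34088090-34094204, listed as an antisense lncRNA. It had 31, 17 and 17 reads in LPS_ES_PMMA, against 129, 169 and 173 reads in LPS_PMMA. The CPM values were 7.53, 8.61 and 5.73 in LPS_ES_PMMA, against 63.4, 66.5 and 62.5 in LPS_PMMA. No library of one group came near the other group, and the nearest libraries differed 7.25-fold. Mean CPM was 7.29 ± 1.46 in LPS_ES_PMMA and 64.1 ± 2.12 in LPS_PMMA (SD, n = 3 each), and the fitted log2 fold change was -3.14 (SE 0.27). Its 65 reads in all of LPS_ES_PMMA make that group's level the less precise one.

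ENSMUST00000198943 is the transcript of Gm43099, a single block of 5241 bases at chr3:108287881-108293121, listed as intronic and sense to Sort1. It had 201, 82 and 138 reads in LPS_ES_PMMA, against 3, 6 and 9 reads in LPS_PMMA. The CPM values were 48.8, 41.5 and 46.5 in LPS_ES_PMMA, against 1.47, 2.36 and 3.25 in LPS_PMMA. All LPS_ES_PMMA libraries were higher, with 12.8-fold between the nearest libraries. Mean CPM was 45.6 ± 3.72 in LPS_ES_PMMA and 2.36 ± 0.887 in LPS_PMMA (SD, n = 3 each), and the fitted log2 fold change was 4.22 (SE 0.34). Per length it was the least abundant of the 4 by mean in both groups, at 6.98 ± 1.34 FPKM in LPS_ES_PMMA and 0.282 ± 0.158 FPKM in LPS_PMMA. MSTRG.49649.2, next above it, had 9.56 ± 2.74 FPKM in LPS_ES_PMMA, which overlaps within the SDs, and 61.7 ± 13.4 FPKM in LPS_PMMA, which does not.

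**Figure D1:**
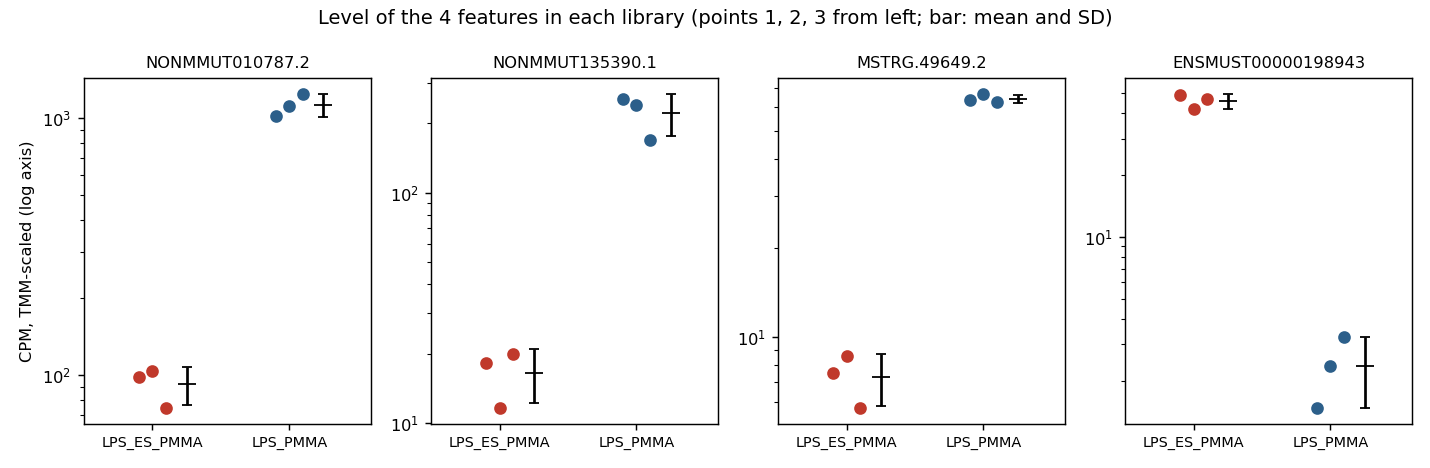
CPM of the TMM-scaled totals (log axis, own range in each panel) of the 4 features, with LPS_ES_PMMA in red and LPS_PMMA in blue; points are libraries 1 to 3 and bars the mean and SD (n = 3 each). The groups do not overlap in any panel: 3 features are lower in LPS_ES_PMMA and ENSMUST00000198943 is higher.

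Of the 3 ratios between the lower features, 1 separated the groups. The reads of NONMMUT010787.2 were 12.1 to 13.1 times those of MSTRG.49649.2 in LPS_ES_PMMA libraries and 16.0 to 19.8 times in LPS_PMMA libraries, without overlap, though MSTRG.49649.2 had 17 to 31 reads per LPS_ES_PMMA library and the difference was not tested. The ratio of NONMMUT010787.2 to NONMMUT135390.1 was 3.76 to 8.91 in LPS_ES_PMMA and 3.96 to 7.31 in LPS_PMMA, and that of NONMMUT135390.1 to MSTRG.49649.2 was 1.35 to 3.47 in LPS_ES_PMMA and 2.71 to 4.03 in LPS_PMMA. Both of these ranges overlapped between the groups. Among single tested features, CPM did not overlap for 14.6% (lower in LPS_ES_PMMA) and 16.2% (higher), and no such share was taken for ratios.

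The sizes depended on how the libraries were scaled. With column totals and no TMM factors, the log2 fold changes were -2.77 for NONMMUT010787.2, -2.95 for NONMMUT135390.1, -2.31 for MSTRG.49649.2 and 4.97 for ENSMUST00000198943. Under that scaling the median over all 8873 features was a log2 fold change of 0.82, against 0.027 with TMM. The log2 fold changes of the authors' deposited table were -3.17, -3.27, -2.69 and 4.63 for the same 4 features in that order.

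**Figure D2:**
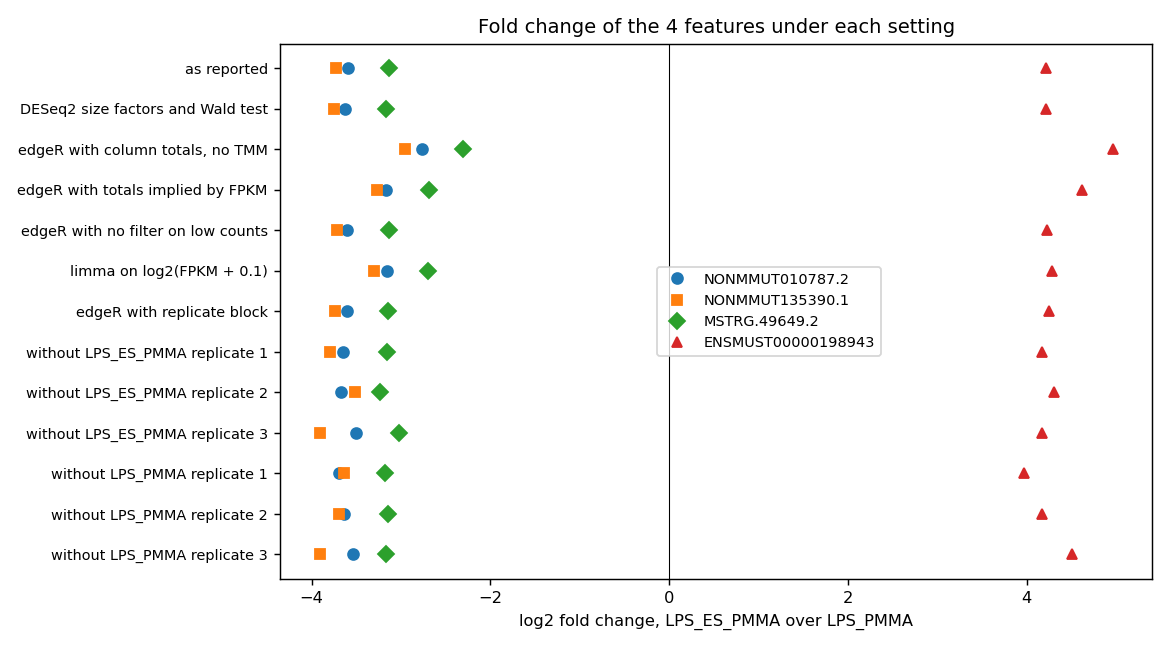
Log2 fold change, LPS_ES_PMMA over LPS_PMMA, of each of the 4 features (marker shape and colour) under each setting down the page. No feature changes direction under any setting, and the largest moves come with column totals in place of TMM.

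The listed positions were then set against gene models, by the whole span from start to end, introns included, since the table gives no exon positions. At its listed place, NONMMUT010787.2 overlapped Gosr1 (ENSMUSG00000010392), of which 30 bp were exon, and its nearest other coding gene to the right was Cpd (ENSMUSG00000020841), 37.9 kb away. The 10111 bp span of NONMMUT135390.1 held 2313 bp of Als2cl exon (ENSMUSG00000044037) and 1577 bp of Gm43127, more than its own 509 exon bases, and which of these its exons meet was not determined. MSTRG.49649.2 met no gene, with Scgb1b30 lying 1.227 kb away. ENSMUST00000198943 met no exon of Sort1 (ENSMUSG00000068747). These are models of GENCODE M21, which is on mm10; GRCm39 models were not used here.

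The transcripts that the authors assembled did not sit on the mm10 models as listed. Of 2305 assembled transcripts, 0 had a listed span equal to an annotated one, whereas 246 had it once moved by up to 1000000 bp, 218 of them with the same spliced length as well. Of 2533 Ensembl features, by contrast, 2517 had the M21 start and end of their own transcript. The offset between assembled and annotated ends was therefore measured within 5 Mb of each of the 4 features, a check chosen after the positions were seen. Each offset is the distance at which the most assembled genes had an end within 60 bp of a coding transcript's end, and on chromosome 9 the one with such genes on both sides of the feature.

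At MSTRG.49649.2, 8 of 10 assembled genes shared an offset of 300.575 kb, and the next offset had 4. Moved by 300.575 kb, MSTRG.49649.2 equalled Gm12764-201 (ENSMUST00000145961), printed above, in both ends and in its 617 bases, which fall in exons of 344 and 273 bases. Gm12764 (ENSMUSG00000086184) is annotated antisense to Lsm14a (ENSMUSG00000066568), with all 344 bases of its first exon in Lsm14a exon and 0 of the 273 bases of its second exon in the Lsm14a gene. Reads of the first exon and those of Lsm14a cannot be told apart without strand, whereas the second exon lies outside Lsm14a. The moved interval also held 3881 bp of exon of 2310043P16Rik, on the same strand as Gm12764. Whether that model meets the exons of Gm12764 was not determined.

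At NONMMUT010787.2, 8 of 20 assembled genes shared an offset of 109.154 kb, and the next offset had 5. Moved by it, the interval covered 704 bp of the first exon of Cpd and, for the rest, sequence upstream of its start. At ENSMUST00000198943, 5 of 10 shared 92.683 kb, and 4 shared 92.090 kb. Moved by 92.683 kb, the interval covered 1544 bp of Psrc1 exon (ENSMUSG00000068744) and 1152 bp of Gm12522 exon. As listed, ENSMUST00000198943 equals Gm43099 in both ends. The offsets were measured on assembled transcripts, and whether they apply to annotated features was not tested.

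At NONMMUT135390.1 the offset was less certain. One of 170.942 kb was shared by 7 of 21 assembled genes on both sides of the feature, and there the span, introns included, held 1565 bp of Ccrl2 exon (ENSMUSG00000043953). One of 122.801 kb was shared by 8, all of them at lower coordinates than the feature, and there the interval met Gm10030 and 0 coding genes. The next offset, of -452.632 kb, was shared by 5.

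**Figure D3:**
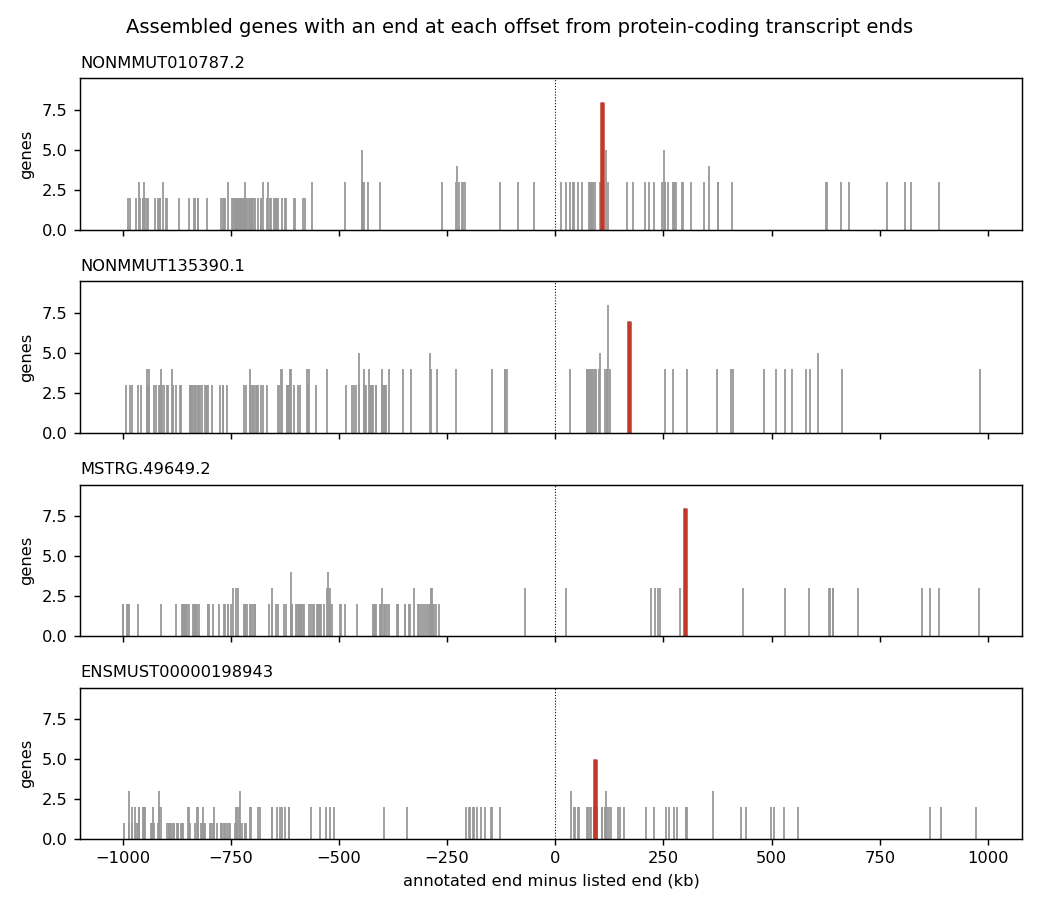
Number of assembled genes with an end at each offset (kb, annotated minus listed end) from coding transcript ends within 5 Mb of each feature; red marks the offset used and the dotted line marks 0. No offset used lies at 0, and on chromosome 9 (NONMMUT135390.1) a bar of 8 genes at 122.801 kb stands above the 7 at the offset used.

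The 4 intervals shared a property that was noticed after they were moved. As listed, 0 of 4 wholly contained the promoter window of a coding gene, and as moved 4 of 4 did, of Cpd, Ccrl2, Lsm14a and Psrc1. With the other offset on chromosome 9 it was 3 of 4. Among 1813 other features with a local offset and a span of at least 3343 bp, 13.1% contained one as listed and 19.6% as moved. All of these are spans with introns included. The other features had an offset only where at least 5 assembled genes shared it, by a set margin over the next offset. The 4 described features were not held to that margin, so the shares are not a like comparison. The counts of 4 are a description of chosen features and carry no test.

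Levels of other single-block features were set against coding exon at the listed and the moved positions. From which position their reads come was not tested. Those with at least 20% of their length in coding exon only as moved had a median of 1.92 FPKM, and 21.2% of 618 reached 10 FPKM. Those with it only as listed had a median of 0.681 FPKM, and 4.34% of 346 reached 10 FPKM. Features with no such overlap at either place had a median of 0.888 FPKM, and 3.05% of 2030 reached 10 FPKM. Those with it at both places had a median of 0.802 FPKM, and 9.02% of 133 reached 10 FPKM.

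In the promoter windows, the NF-kB consensus had 1 match in Cpd, GGAAAGCCCC, starting at -122 from the gene's start, and 1 in the first of 3 Ccrl2 windows, GGGGCTTCCC, starting at -56. The 2 Psrc1 windows, the Lsm14a window and the Gosr1 window held none, and both Als2cl windows held GGGACATTCC. Of 32544 distinct promoter windows, 8.49% held a match. This spelling was adopted after a looser one, GGG and CC with any 5 bases between, had been searched and found in 51% of windows, including at least 1 window each of Cpd, Ccrl2, Psrc1, Als2cl and Lsm14a. Matches to the interferon-stimulated response element (GAAA and GAAA with any 2 bases between, in 3.45% of windows), TTCNNNGAA (the gamma-activated site, 8.33%) and TGANTCA (AP-1, 7.79%) were absent from the Cpd, Ccrl2 and Psrc1 windows on both strands. A match is a description of letters and not a binding site.

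Other listed features lay on the same gene model as moved for NONMMUT010787.2 and MSTRG.49649.2. NONMMUT010786.2 lies 64.1 kb from NONMMUT010787.2, and as moved it covers 3777 bp of Cpd exon, at the other end of the gene. It had 9355, 4176 and 7192 reads in LPS_ES_PMMA, against 7724, 10926 and 12402 in LPS_PMMA. In CPM the groups did not overlap, at 2270 ± 154 in LPS_ES_PMMA and 4192 ± 353 in LPS_PMMA (SD, n = 3 each), but the log2 fold change of -0.88 (SE 0.26) did not pass in edgeR's quasi-likelihood test (adjusted p = 0.106), whereas it passed in DESeq2 (adjusted p = 0.0382). The FPKM of NONMMUT010787.2 was 5.01%, 5.67% and 3.57% of that of NONMMUT010786.2 in LPS_ES_PMMA and 30.8%, 29.8% and 31.8% in LPS_PMMA. NONMMUT010787.2 was chosen for its large difference between these groups. The lower share in LPS_ES_PMMA therefore follows largely from the choice and carries no test.

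NONMMUT126606.1 overlaps the end of MSTRG.49649.2 by 181 bp and, as moved, lies wholly in Lsm14a exon over its span of 2178 bp. It had 60, 30 and 56 reads in LPS_ES_PMMA, against 29, 45 and 46 in LPS_PMMA. Mean CPM was 16.2 ± 2.32 in LPS_ES_PMMA and 16.2 ± 1.76 in LPS_PMMA (SD, n = 3 each), and it did not pass in edgeR (log2 fold change SE 0.25, adjusted p = 1.00). The FPKM of MSTRG.49649.2 was 117%, 128% and 68.8% of that of NONMMUT126606.1 in LPS_ES_PMMA and 1008%, 851% and 852% in LPS_PMMA. Since MSTRG.49649.2 was chosen for its difference between these groups, this too follows largely from the choice and carries no test. MSTRG.49647.1, also on Lsm14a as moved, averaged 3.95 ± 2.69 CPM in LPS_ES_PMMA and 4.81 ± 0.549 CPM in LPS_PMMA and did not pass in edgeR (adjusted p = 0.756).

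ENSMUST00000198943 lies on Psrc1 and Gm12522 as moved and in Sort1 as listed, and 8 low features lie on Sort1 as moved, a different model from its own there, each with too few reads for the filter. Their summed reads were 59, 20 and 32 in LPS_ES_PMMA, against 13, 6 and 9 in LPS_PMMA. In summed CPM these were 14.3, 10.1 and 10.8 in LPS_ES_PMMA, against 6.39, 2.36 and 3.25 in LPS_PMMA, which did not overlap. Of single tested features, 16.2% were higher without overlap. Among the 8, NONMMUT111937.1 and NONMMUT111938.1 overlap each other as listed, so the sums may count shared reads repeatedly, which was not tested. Some of the 8 met 0 bp of Sort1 exon, among them NONMMUT044757.2, with 20, 10 and 6 reads in LPS_ES_PMMA. With no filter on low counts, edgeR called none of the 8 (smallest adjusted p = 0.270). NONMMUT113832.1 is listed as exonic and antisense, and its listed span of 32204 bp, introns included, holds 5492 bp of Sort1 exon. That is more than its own 2748 exon bases, and which of these its exons meet was not determined. It had 34, 12 and 30 reads in LPS_ES_PMMA, against 29, 31 and 41 in LPS_PMMA. In CPM it was lower without overlap, at 8.26, 6.08 and 10.1 in LPS_ES_PMMA, against 14.3, 12.2 and 14.8 in LPS_PMMA. Of all tested features, 14.6% were lower without overlap. It did not pass in edgeR (log2 fold change -0.74, adjusted p = 0.1997).

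**Figure D4:**
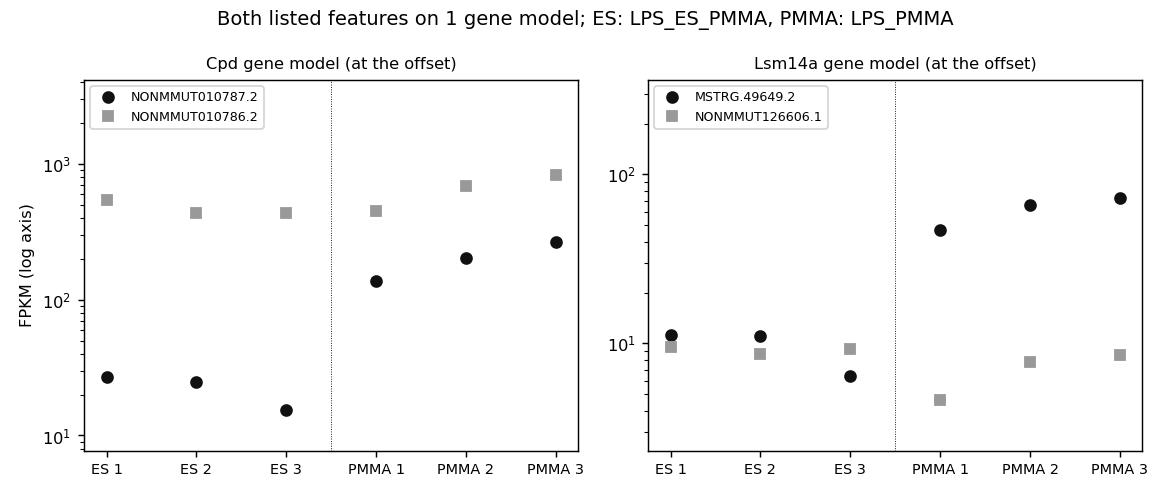
FPKM (log axis) in each library, LPS_ES_PMMA left of LPS_PMMA, of the described feature (black circles) and another listed feature (grey squares) on the Cpd and Lsm14a gene models after moving. The black points, of features chosen for their difference between the groups, are lower in every LPS_ES_PMMA library than in every LPS_PMMA library. On this scale the grey points overlap between the groups on Cpd and are slightly higher in LPS_ES_PMMA on Lsm14a. In CPM the grey feature on Cpd, NONMMUT010786.2, was lower in LPS_ES_PMMA without overlap, as were 14.6% of tested features.

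Within 100 kb of the 4 features, 24 other features were listed and 7 had enough reads to test. By edgeR 0 of the 7 were called at an adjusted p under 0.05, where 4.76% of all tested features were; 2 had an unadjusted p under 0.05, as did 21.9% of all tested features, and the smallest adjusted p was 0.106. DESeq2 called 1, NONMMUT010786.2. Their median log2 fold change was -0.50, and 6 of 7 lay below 0, against a median of 0.027 over all tested features. Within 250 kb, 43 were listed, 17 tested and 0 called by edgeR, with 3 at an unadjusted p under 0.05, again near that share. Since the 4 features were chosen as standing alone, this count describes the choice.

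**Figure D5:**
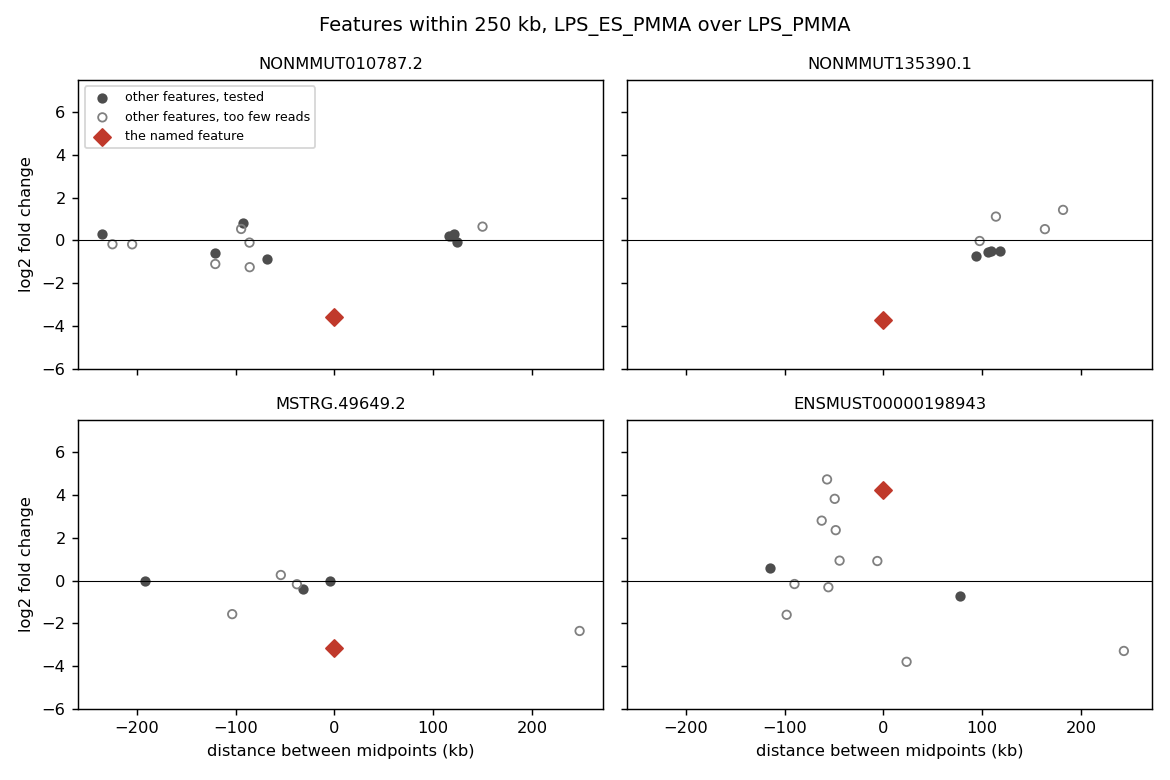
Log2 fold change, LPS_ES_PMMA over LPS_PMMA, against the distance between midpoints (kb) for listed features within 250 kb of each of the 4 (red diamonds); filled circles were tested and open circles had too few reads. Tested neighbours lie between -0.88 and 0.79, closer to 0 than the diamonds. The open circles beside ENSMUST00000198943 scatter widely on few reads, and that of ENSMUST00000198175, at 4.73, lies above the diamond at 4.22. The 4 features were chosen as standing alone.

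Features with the most similar profile were found as the smallest root mean square difference of centred log2(CPM + 0.5) over the 6 libraries, among 8872 others. NONMMUT034527.2 was nearest to NONMMUT010787.2 (0.114), with 3, 2 and 2 reads in LPS_ES_PMMA against 30, 43 and 48 in LPS_PMMA. Its log2 fold change was -4.31, and at so few reads the distance depends on the 0.5 added. NONMMUT122964.1 was nearest to NONMMUT135390.1 (0.154), and NONMMUT117700.1 to MSTRG.49649.2 (0.173). Of the 9 features nearest to the 3 lower ones, counted as 3 each, 6 lay near one another on chromosome 4 (4 distinct features). NONMMUT031416.2 (0.291), NONMMUT031052.2 (0.378) and NONMMUT116670.1 (0.411) were the nearest to ENSMUST00000198943. NONMMUT031052.2 and NONMMUT116670.1 had 0 reads in every LPS_PMMA library, so their distances depend on the 0.5 added. Their log2 fold changes were 7.04 and 6.98, against 4.22 for ENSMUST00000198943. These likenesses rest on 6 libraries of 2 groups and follow mainly from the difference between the groups.

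Of 25 tested lncRNA features tied to 4 related gene families, 1 passed the test, or 4%, near the 4.76% of all tested features. The ties rest on the table's gene column and on listed positions, so that NONMMUT010786.2, on Cpd only as moved, is not among them. Of 21 listed at chemokine receptors and atypical receptors, 6 were tested and 1 fell in LPS_ES_PMMA, with a median log2 fold change of -0.43. It was NONMMUT133763.1, near Ccr9, with 20, 5 and 16 reads in LPS_ES_PMMA, against 44, 50 and 47 in LPS_PMMA, and its log2 fold change was -2.14 (SE 0.34, edgeR adjusted p = 0.0180). Its call was lost without TMM, with totals implied by FPKM, with limma, with a replicate block and with any 1 library left out. Of 16 at carboxypeptidases and arginine or nitric oxide metabolism, 5 were tested and 0 called (median 0.20, smallest edgeR adjusted p = 0.111). Of 11 at sorting receptors, 3 were tested and 0 called (median -0.0066, smallest 0.1997 by edgeR), and of 32 at mRNA decapping and P bodies, 11 were tested and 0 called (median 0.25, smallest 0.176 by edgeR).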

How the data were processed

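RNA of 6 RAW264.7 libraries, 3 per group by their titles, was made from 1.3 ug of total RNA with a SMARTER mRNA kit, per the labels' protocols. Counts are whole-number reads that the authors assigned to each feature, and FPKM the authors' normalized values, per the file headers; the log2 fold changes and p-values of the deposited table are the authors' own, and only the fold changes were copied. The submitters' processing notes name mm10; the sources used here give no aligner, counter or strand setting. Of the per-sample columns, 0 were left unused.

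Features passing filterByExpr (minimum count 10, minimum total 15) were compared by the edgeR 4.0.16 quasi-likelihood test with TMM in R 4.3.3, with Benjamini-Hochberg adjustment over all 8873 tested and a threshold of 0.05; standard errors were taken from the fold change and the root of F and are approximate. DESeq2 1.42.0, limma 3.58.1 on log2(FPKM + 0.1) and other alternatives were run, and the scripts were tested on simulated data. Chi-square per degree of freedom between replicates lay between 15.4 and 45.5, above sampling noise. Reads are not independent molecules, so counts limit precision further than counting error alone.

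The members and gene lists were chosen with earlier results of these data known. The offset check, the choice of the chromosome 9 offset, the promoter count and the NF-kB spelling were chosen after seeing values. Named besides the 4 features were those sharing a gene model, the strongest or called neighbours within 100 kb, the 3 nearest profiles and called list features; the position ties used a distance of 10 kb.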

Additional observations from a re-analysis of the deposited data

How the results depend on the processing

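All 4 features kept their direction under each of 12 alternatives. Without TMM factors the log2 fold changes were -2.77, -2.95, -2.31 and 4.97 (NONMMUT010787.2, NONMMUT135390.1, MSTRG.49649.2, ENSMUST00000198943). With library totals implied by FPKM the first 3 were -3.17, -3.26 and -2.69, and with limma on FPKM -3.16, -3.30 and -2.70. Leaving out a library gave -3.70 to -3.50, -3.91 to -3.52, -3.24 to -3.02 and 3.97 to 4.51.

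The whole-table count of 422 calls (193 higher, 229 lower) was 174 with no filter on low counts and 50 to 136 with 1 library left out; with the library 2 of LPS_PMMA left out it was 50. Among settings that kept the count within 1.5 times, the split moved to 302 higher and 68 lower without TMM, 230 and 94 with implied totals, and 207 and 90 with limma. Neighbours called within 100 kb numbered 1 with DESeq2 and 0 otherwise. The call of NONMMUT133763.1, the 1 called list feature, gave 0 without TMM, with implied totals, with limma, and in each fit that left out a library (0 to 0). The cause was not tested.

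With the replicate number as a block, 41 features were called (10 higher, 31 lower), the list count was 0, and the 4 log2 fold changes were -3.61, -3.74, -3.15 and 4.25. Same-numbered libraries correlated at -0.018, -0.027 and -0.090, so the numbers were not taken as pairs. Low reads in ENSMUST00000198943 (18 in LPS_PMMA) and MSTRG.49649.2 (65 in LPS_ES_PMMA) limit the precision of their folds. With the other chromosome 9 offset, chosen after seeing the data, 3 moved intervals held a promoter window.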
